A study of Mus musculus with 9 samples.

Results

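The 8 genes described here encode proteins that neutrophils store or secrete: S100a8 and S100a9, the subunits of calprotectin, and Ngp, Mpo, Camp, Ltf, Lcn2 and Elane, whose products lie in neutrophil granules. They were taken as every probe set annotated to these genes, which gave 10 of the 12422 probe sets on the array that are not controls. All 8 genes had a probe set. The genes were chosen with the values of all 9 arrays known, so their levels and differences are given as a description. Nothing is read from a test on them.

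RNA of the gastrocnemius, a muscle of the calf, came from 9 individual mice of 6 genotypes and was read on 1 Affymetrix U74Av2 oligonucleotide array per mouse. In mdx mice a mutation in Dmd removes full-length dystrophin, the protein that ties the muscle fibre's cytoskeleton to its membrane. Utrn encodes utrophin, a close relative of dystrophin, and hDMD is a transgene holding the full-length human dystrophin gene. The 1 hDMD mdx utrn-/- mouse, aged 9 weeks, lacked mouse dystrophin and utrophin and carried the human gene. The 1 mdx utrn-/- mouse, aged 5 weeks, lacked both proteins and had no human gene, and it was the youngest animal of the series. The hDMD mdx mice were 24 and 10 weeks old, the mdx mice 15 and 13 weeks, the hDMD mouse, with both the mouse and the human gene, 11 weeks, and the wild-type mice 7 weeks. The wild-type strain was C57Bl/DBA2/129OLA-Ev, and all mice were male except wild-type 1. Age, the individual animal and genotype cannot be told apart in a genotype with 1 mouse. Every mdx and hDMD mdx mouse was older than both wild-type mice, so age and genotype cannot be told apart in those comparisons either.

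Neutrophils are short-lived white blood cells made in the bone marrow, which circulate in blood and enter damaged tissue early. Their azurophil granules carry Mpo and Elane, their specific granules carry Ltf, Camp, Ngp and Lcn2, and calprotectin is abundant in their cytosol. Transcription of many granule genes is known to take place mostly in marrow precursors and to stop as the cells mature, whereas calprotectin transcripts persist in mature neutrophils. In a whole-muscle extract, fewer neutrophils and less RNA per neutrophil cannot be told apart.

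Levels are log2 of the normalised intensity plus 16, so a value of 4 is the floor, reached where the intensity was 0 or below, and differences of dim genes are understated. By 9 hybridisation spike-in probe sets, whose RNA is added in fixed amounts, the arrays fell into 3 bright ones (hDMD mdx 1, mdx 2 and wild-type 1, mean log2 8.31 to 8.56) and 6 dim ones (5.39 to 5.95). This split was made after the values had been seen, and it crosses the 3 genotypes with 2 mice. Both utrn-/- arrays and the hDMD array were dim.

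After normalisation each of the 8 genes was highest in the mdx utrn-/- mouse. On the deposited intensities, which were not scaled between arrays, 4 were highest there (S100a8, S100a9, Ngp and Mpo), and Camp, Ltf, Lcn2 and Elane were higher in at least 1 bright array. In the normalised values the 8 genes' mean level was 8.08 in mdx utrn-/-, against 5.47 in wild-type 2, the next highest, and 4.55 in hDMD mdx 1, the lowest. Among all kept probe sets 11.4% were highest in that array, and 0.416% stood at least 1 above every other array. That group held all 8 genes by their brighter probe sets. Because the genes were chosen on these values, nothing is read from that count.

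**Figure D1:**
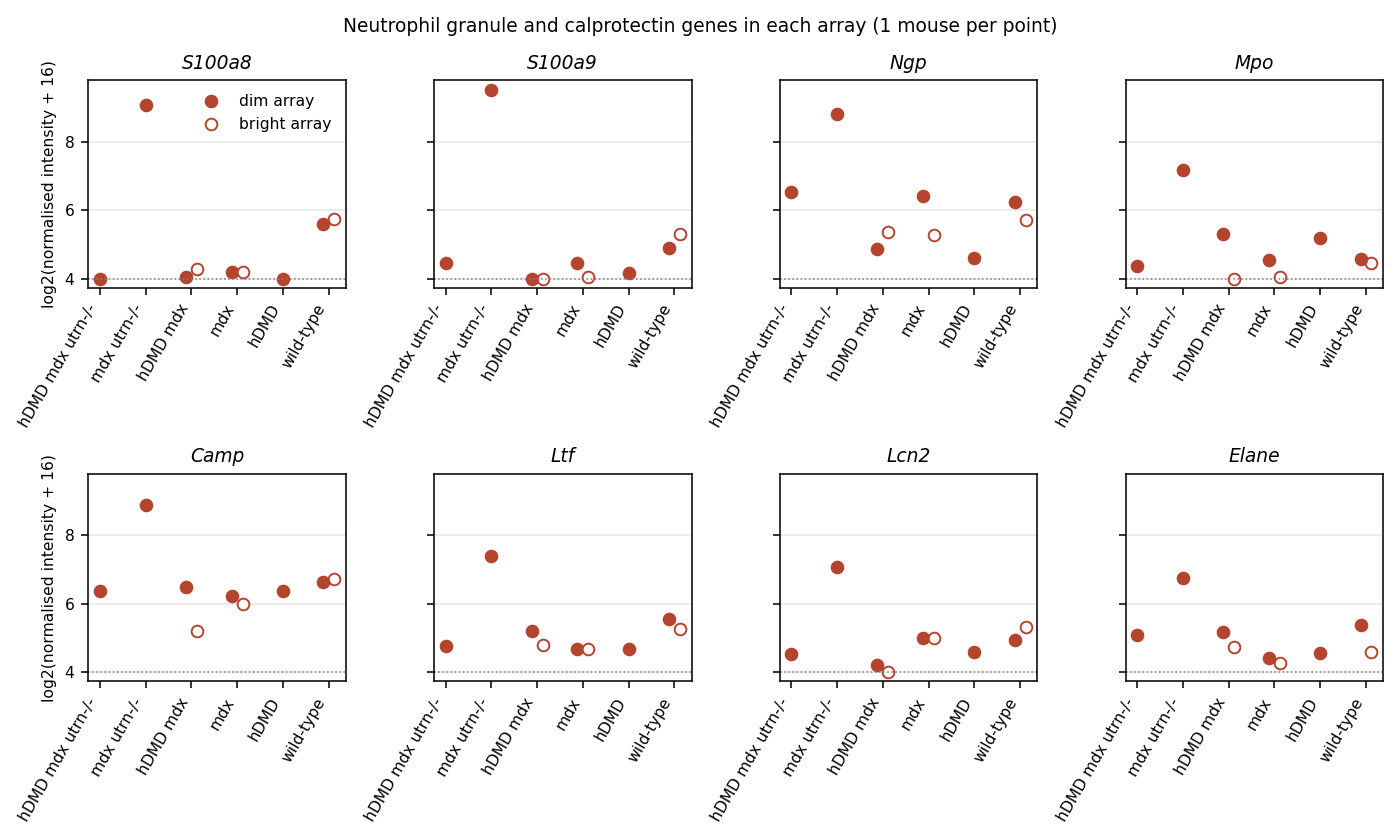
The 8 genes' levels, as log2 of the normalised intensity plus 16, in each of the 9 mice by genotype; filled points are dim arrays and open points bright ones. The mdx utrn-/- mouse stands above the other 8 mice for every gene.

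S100a9 and S100a8 form calprotectin, a calcium- and zinc-binding complex that makes up much of the neutrophil cytosol and acts on Toll-like receptor 4 when released. S100a9 (Entrez gene 20202) stood at 4.46 in hDMD mdx utrn-/-, 9.52 in mdx utrn-/-, 4 and 4 in hDMD mdx, 4.46 and 4.05 in mdx, 4.16 in hDMD, and 5.29 and 4.89 in wild-type. S100a8 (20201) stood at 4 in hDMD mdx utrn-/-, 9.08 in mdx utrn-/-, 4.27 and 4.04 in hDMD mdx, 4.20 and 4.19 in mdx, 4 in hDMD, and 5.74 and 5.59 in wild-type. Thus the mdx utrn-/- array was alone above 6 for both genes, the wild-type pair came next, and the 6 arrays of the other 4 genotypes lay within 0.5 of the floor. S100a9 had an intensity of 716 in mdx utrn-/-, against 23.1 in wild-type 1, the next highest, a 31.0-fold gap. S100a8 had 526 in mdx utrn-/-, against 37.4 in wild-type 1, a 14.1-fold gap. Ranked over the 12422 probe sets by the log2 gap between mdx utrn-/- and the next array, S100a9 was at rank 1 with a gap of 4.23 and S100a8 at rank 3 with 3.34. The rank between them was held by G0s2, an inhibitor of fat breakdown.

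Ngp, neutrophilic granule protein, is a cystatin-like protein of specific granules. Its probe set (gene 18054) stood at 6.54 in hDMD mdx utrn-/-, 8.80 in mdx utrn-/-, 5.35 and 4.86 in hDMD mdx, 6.40 and 5.29 in mdx, 4.60 in hDMD, and 5.71 and 6.23 in wild-type. The mdx mice spanned the range of the wild-type ones, so these 2 genotypes overlapped. The gap above hDMD mdx utrn-/-, the next highest array, was 2.26 (rank 5).

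Camp encodes the antimicrobial peptide cathelicidin, and its probe set (gene 12796) was the brightest of the 10 probe sets. It stood at 6.37 in hDMD mdx utrn-/-, 8.88 in mdx utrn-/-, 5.21 and 6.49 in hDMD mdx, 6.23 and 5.99 in mdx, 6.36 in hDMD, and 6.72 and 6.62 in wild-type. Apart from mdx utrn-/- at the top and hDMD mdx 1 at the bottom, the arrays lay between 5.99 and 6.72. The gap above wild-type 1 was 2.16 (rank 6).

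Ltf, lactotransferrin, is an iron-binding protein that starves microbes of iron. Its probe set (gene 17002) stood at 4.75 in hDMD mdx utrn-/-, 7.38 in mdx utrn-/-, 4.80 and 5.20 in hDMD mdx, 4.68 and 4.68 in mdx, 4.67 in hDMD, and 5.27 and 5.55 in wild-type. The wild-type pair was again next below mdx utrn-/-, above both hDMD mdx mice, and the gap was 1.84 (rank 10).

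Lcn2, lipocalin 2, binds bacterial siderophores and is also made by other tissues under inflammation. Its brighter probe set (gene 16819) stood at 4.51 in hDMD mdx utrn-/-, 7.07 in mdx utrn-/-, 4 and 4.20 in hDMD mdx, 5.00 and 4.99 in mdx, 4.60 in hDMD, and 5.32 and 4.94 in wild-type. The hDMD mdx pair was the lowest, below every other genotype, and the gap above wild-type 1 was 1.75 (rank 11). A second, dimmer probe set was also highest in mdx utrn-/- at 5.61, but by 0.25 over hDMD mdx utrn-/- (rank 499), with the other 8 arrays between 4.29 and 5.35.

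Mpo encodes myeloperoxidase, the enzyme that makes hypochlorous acid in azurophil granules. Its brighter probe set (gene 17523) stood at 4.38 in hDMD mdx utrn-/-, 7.17 in mdx utrn-/-, 4 and 5.31 in hDMD mdx, 4.55 and 4.04 in mdx, 5.20 in hDMD, and 4.45 and 4.56 in wild-type. The hDMD mdx mice lay at the floor and at the top of the remaining arrays, so the genotypes overlapped outside mdx utrn-/-, and the gap was 1.86 (rank 9). The other Mpo probe set had a mean at the 39.3rd percentile, just under the 40th percentile set as the lower limit for the tests. It stood at 5.08 in mdx utrn-/-, against 4.81 in wild-type 1, a gap of 0.28 (rank 455).

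Elane encodes neutrophil elastase, the main serine protease of azurophil granules. Its probe set (gene 50701) stood at 5.07 in hDMD mdx utrn-/-, 6.76 in mdx utrn-/-, 4.74 and 5.17 in hDMD mdx, 4.40 and 4.27 in mdx, 4.55 in hDMD, and 4.57 and 5.37 in wild-type. The mdx mice were the lowest pair, below both hDMD mdx mice, and the gap above wild-type 2 was 1.39 (rank 21).

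**Figure D2:**
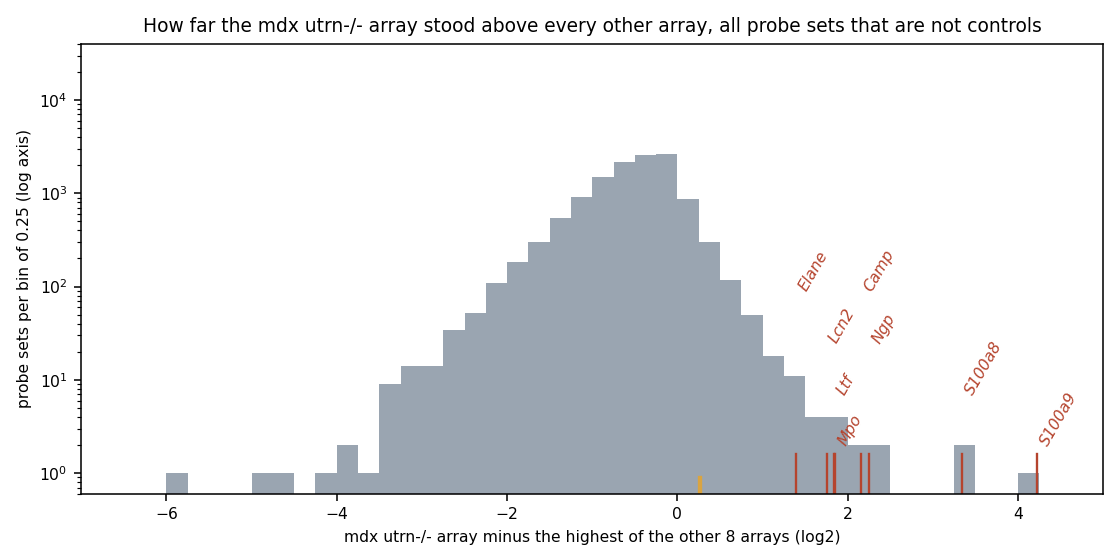
For every probe set that is not a control, the log2 level in mdx utrn-/- minus the highest level among the other 8 arrays (x axis) and the number of probe sets (y axis, log scale). Red marks show the members' brighter probe sets, between 1.39 for Elane and 4.23 for S100a9, and orange marks the dimmer ones of Lcn2 and Mpo, at 0.25 and 0.28.

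The promoters of the 2 calprotectin genes, of Ngp and of Mpo are shown because C/EBP and PU.1 factors are known to drive myeloid genes. Each sequence is the 250 bases before the transcription start, 5′ to 3′ on the gene's strand, from RefSeq on GRCm38.p6. Capitals mark matches on either strand to TTNNGNAA (C/EBP), GGAAGT (PU.1) and TATAAA.
S100a8 promoter: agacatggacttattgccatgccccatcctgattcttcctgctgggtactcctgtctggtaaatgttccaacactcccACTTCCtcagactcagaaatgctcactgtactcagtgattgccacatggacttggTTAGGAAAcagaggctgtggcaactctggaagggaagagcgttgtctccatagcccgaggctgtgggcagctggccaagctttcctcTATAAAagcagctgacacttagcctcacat
S100a9 promoter: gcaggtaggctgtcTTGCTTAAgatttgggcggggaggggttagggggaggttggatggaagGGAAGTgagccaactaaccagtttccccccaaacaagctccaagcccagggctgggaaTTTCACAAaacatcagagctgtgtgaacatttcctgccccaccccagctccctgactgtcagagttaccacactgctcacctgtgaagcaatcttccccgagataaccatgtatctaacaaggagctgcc
Ngp promoter: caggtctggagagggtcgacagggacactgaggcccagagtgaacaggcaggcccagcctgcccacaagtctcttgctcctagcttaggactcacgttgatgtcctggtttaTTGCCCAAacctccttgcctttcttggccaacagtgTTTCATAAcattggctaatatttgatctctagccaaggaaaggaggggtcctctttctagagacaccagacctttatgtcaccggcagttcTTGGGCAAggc
Mpo promoter: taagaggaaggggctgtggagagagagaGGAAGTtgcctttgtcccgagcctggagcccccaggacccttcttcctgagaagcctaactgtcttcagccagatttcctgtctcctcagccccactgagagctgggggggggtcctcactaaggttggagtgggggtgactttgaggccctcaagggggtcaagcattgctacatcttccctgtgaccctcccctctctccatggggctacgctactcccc
S100a8 (chr3:90668821-90669070, plus strand) held 1 match of each motif, S100a9 (chr3:90695722-90695971, minus strand) 2 C/EBP matches and 1 PU.1 match. Ngp (chr9:110419558-110419807, plus strand) held 3 C/EBP matches, and Mpo (chr11:87793534-87793783, plus strand) 1 PU.1 match. Over the 8 genes, the C/EBP letters were found in 5 (S100a8, S100a9, Ngp, Ltf and Lcn2), against 36.8% of 32851 promoters. The PU.1 letters were found in 4 (S100a8, S100a9, Mpo and Elane), against 19.7% of promoters, and no C/EBP match overlapped a PU.1 match. Camp held none of the 3. The promoters of Camp, Ngp and Ltf all lie on chromosome 9.

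In mdx utrn-/- against mdx, both without dystrophin, the 8 genes differed by a median of 2.82 (log2), against -0.02 over all kept probe sets. The difference was 5.26 ± 0.42 (SE from the fit across all probe sets) for S100a9, 4.89 ± 0.39 for S100a8 and 2.95 ± 0.58 for Ngp. It was 2.87 ± 0.60 for Mpo, 2.77 ± 0.57 for Camp, 2.70 ± 0.41 for Ltf, 2.42 ± 0.48 for Elane and 2.08 ± 0.41 for Lcn2. By the dimmer probe sets the difference was 0.87 for Mpo and 0.64 for Lcn2. The spread comes from 3 genotypes with 2 mice, and the 1 mdx utrn-/- mouse is assumed to vary like them. With limma and Benjamini-Hochberg adjustment, 2 of 7453 probe sets (0.0268%) passed the threshold of 0.05, and both were the calprotectin genes, from which nothing is read since they were chosen on this array. At an unadjusted p under 0.05 the count was 286 (3.84%). All 8 genes were above both mdx mice, against 31.4% of kept probe sets higher than both and 34.9% lower than both. None passed on the deposited intensities, with a pseudocount of 1, or without either mdx mouse. Within the dim arrays, mdx utrn-/- against mdx 1, the median difference was 2.63.

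The pair with 1 mouse of each genotype, hDMD mdx utrn-/- against mdx utrn-/-, had no test. By their brighter probe sets all 8 genes were lower by at least 1 in the mouse with the human gene. Of kept probe sets 10.1% were lower by that much and 8.17% higher. The dimmer probe sets fell short of 1, at -0.94 for Mpo and -0.25 for Lcn2. The median difference was -2.59, with -5.06 for S100a9, -2.79 for Mpo, -2.63 for Ltf, -2.56 for Lcn2, -2.51 for Camp, -2.26 for Ngp and -1.69 for Elane. S100a8 was at the floor in the hDMD mdx utrn-/- mouse and at 9.08 in the mdx utrn-/- mouse. Markers of other cell types also differed in this pair, in both directions. Macrophage markers summed to 372 in hDMD mdx utrn-/- and 1245 in mdx utrn-/-, with 12 of 14 lower, among them Lgals3 by -3.48 and Lyz2, which was at the floor in hDMD mdx utrn-/- and at 7.16 in mdx utrn-/-. Adipocyte markers summed to 818 in hDMD mdx utrn-/- and 2445 in mdx utrn-/-, with 5 of 7 lower, among them Retn by -4.67 and Fasn by -2.74. Red cell markers summed to 1024 in hDMD mdx utrn-/- and 2102 in mdx utrn-/-, with 4 of 4 lower, among them Car2 by -2.89. The part of these cells in the members' differences was not tested. Both arrays were dim. The comparison shares its mdx utrn-/- array with the one above, so the 2 sets of values are not independent.

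The mdx mice, which have utrophin, were lower than wild-type for all 8 genes by their brighter probe sets, by a median of -0.60. Both mdx mice were older than both wild-type mice, so age and genotype cannot be told apart here. S100a8 differed by -1.47 ± 0.32, S100a9 by -0.84 ± 0.35, Ltf by -0.73 ± 0.34, Elane by -0.63 ± 0.39 and Camp by -0.56 ± 0.47. Those 5 genes had both mdx mice below both wild-type mice, against 10.7% of kept probe sets. Mpo, Lcn2 and Ngp differed by -0.21 to -0.12 and overlapped. The dimmer Lcn2 probe set went the other way, at 4.92 and 5.00 in mdx, against 4.79 and 4.72 in wild-type. It differed by 0.21 ± 0.34 and the groups did not overlap, so the direction of Lcn2 depended on the probe set. Kept probe sets higher without overlap made up 11.2%. The median was -0.50 within the bright arrays and -0.41 within the dim ones. With limma, 0 of 7453 probe sets passed, and 130 (1.74%) had an unadjusted p under 0.05.

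The hDMD mdx mice were lower than wild-type for 7 of the 8 genes by their brighter probe sets. The median was -0.84, and 6 genes were lower without overlap, against 8.48% of kept probe sets. These mice were also older than both wild-type mice, so age and genotype cannot be told apart here either. S100a8 differed by -1.51, Lcn2 by -1.03 and Elane by -0.01, and Mpo was the gene not lower, at 0.15. By the dimmer probe sets Lcn2 differed by -0.23 and Mpo by -0.19, and both overlapped. The median was -0.88 within the bright arrays and -0.54 within the dim ones. For S100a9, hDMD mdx lay at the floor in both mice and wild-type at 5.29 and 4.89, and no fold is given. Here too 0 probe sets passed, with 62 (0.832%) under an unadjusted p of 0.05.

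Against mdx, the hDMD mdx mice showed no common direction: 3 genes were higher and 5 lower, with a median of -0.15. Ltf (0.32 ± 0.34) and Elane (0.62 ± 0.39) had both hDMD mdx mice higher, against 13.9% of kept probe sets. Lcn2 (-0.89 ± 0.33) had both lower, as did S100a9, which lay at the floor in hDMD mdx, against 13.1%. The median within the bright arrays was 0.01 and within the dim arrays 0.05. Of the 7453 probe sets 0 passed, and 215 (2.88%) had an unadjusted p under 0.05.

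The 3 arrays lacking dystrophin (mdx utrn-/- and mdx) against the 6 carrying it had a median of 0.91 over the 8 genes, each higher, but no gene was without overlap, against 1.52% of kept probe sets higher without overlap and 1.42% lower. Of the 7453 probe sets 9 (0.121%) passed, none of them a member, and 416 (5.58%) had an unadjusted p under 0.05. Without the mdx utrn-/- mouse the median was -0.29, with -0.58 for Elane, -0.41 for S100a8 and 0.40 for Lcn2. That single array therefore set the sign of the median, which was also -0.30 within the bright arrays, where it has no part, and 1.28 within the dim ones.

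**Figure D3:**
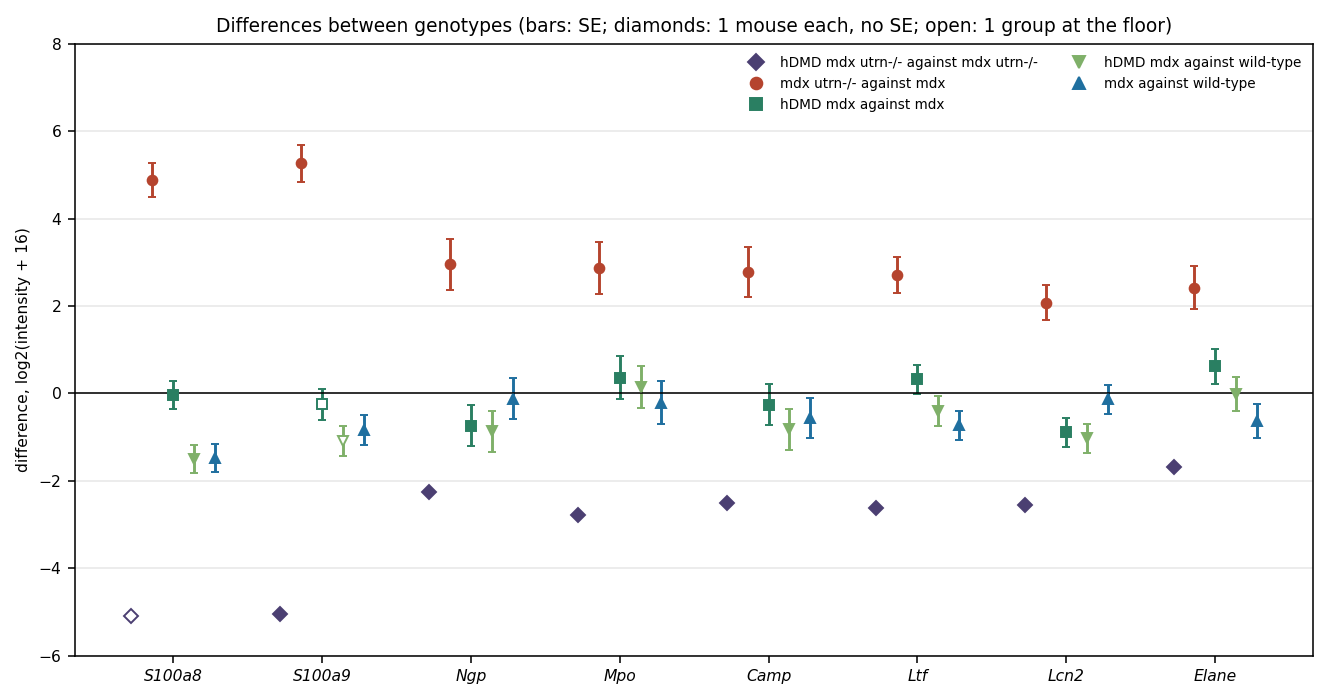
Differences of the 8 genes on the log2 scale (y axis) in 5 comparisons of genotypes; bars are the SE of the fit, diamonds compare 1 mouse with 1 mouse and have none, and open symbols mark a group at the floor. The mdx utrn-/- against mdx points lie between 2.08 and 5.26, and those of the hDMD mdx utrn-/- mouse against the mdx utrn-/- mouse lie below 0.

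Across the 9 arrays the 28 pairs of genes had Pearson correlations of 0.64 to 0.97, with a median of 0.86. The mdx utrn-/- array bears on each of these, and over the other 8 arrays they ran from -0.45 to 0.88 with a median of 0.31. S100a8 and S100a9 were the highest pair without that array, at 0.88. These are descriptions over arrays that share normalisation. The 8 other genes closest to calprotectin over the 9 arrays were Eif4ebp1 (r = 0.97), G0s2 (0.95), Mmp9 (0.95), Gjb2 (0.91), Ocel1 (0.91), Slc6a12 (0.91), Hoxc5 (0.90) and Ifitm1 (0.89). Without the mdx utrn-/- array these were 0.71 for Eif4ebp1, 0.43 for G0s2, 0.78 for Mmp9, 0.63 for Gjb2, 0.82 for Ocel1, 0.51 for Slc6a12, 0.34 for Hoxc5 and 0.36 for Ifitm1. Of 5666 genes ranked over the 9 arrays, Ltf came at rank 3, Lcn2 at 7, Camp at 8, Ngp at 21, Elane at 28 and Mpo at 44. Over the other 8 arrays their correlations with calprotectin were 0.74 for Ltf, 0.68 for Lcn2, 0.54 for Camp, 0.40 for Ngp, 0.20 for Elane and -0.15 for Mpo.

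Other neutrophil genes were set beside the members. Of other granule and effector genes, 12 were kept, and in mdx utrn-/- against mdx they had a median of 0.42, with 10 higher and 2 lower. Of the 16 with a probe set, 3 were highest in the mdx utrn-/- array. The summed intensity of the 16 was 1337 there (rank 2), against 294 to 2269 in the other arrays. Chil3, a chitinase-like protein, differed by 2.69 ± 0.58. Mmp9, a granule gelatinase that cleaves matrix, stood at 6.11 in mdx utrn-/- and at the floor in both mdx mice. None of the 12 passed with limma, and 2 had an unadjusted p under 0.05. Prtn3 and Ctsg, azurophil proteases like Elane, stood at 5.18 and 4.35 in the mdx utrn-/- mouse and were not highest there, and Mmp8 was at the floor in all arrays.

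Receptors and adhesion genes (9 kept) had a median of 0.20, with 5 higher and 4 lower. The 2 largest differences were both lower: Itgb2, a shared integrin chain, at -0.83 ± 0.49 and Fcgr3, an Fc receptor, at -0.75 ± 0.85. Attractants and growth factors (4 kept) had a median of 0.29, and the largest values were Cxcl12 at 0.67 ± 0.46 and Vcam1 at 0.37 ± 0.58. Transcription factors of granulocytes (8 kept) had a median of 0.40, with Cebpd at 1.23 ± 0.71 and Cebpb at 0.63 ± 0.73. Receptors and inhibitors of the member proteins (7 kept) had a median of 0.38, with Serpina1b at 0.98 ± 0.70 and Cd14 at 0.59 ± 0.60. No gene of these 4 lists passed, and none had an unadjusted p under 0.05.

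**Figure D4:**
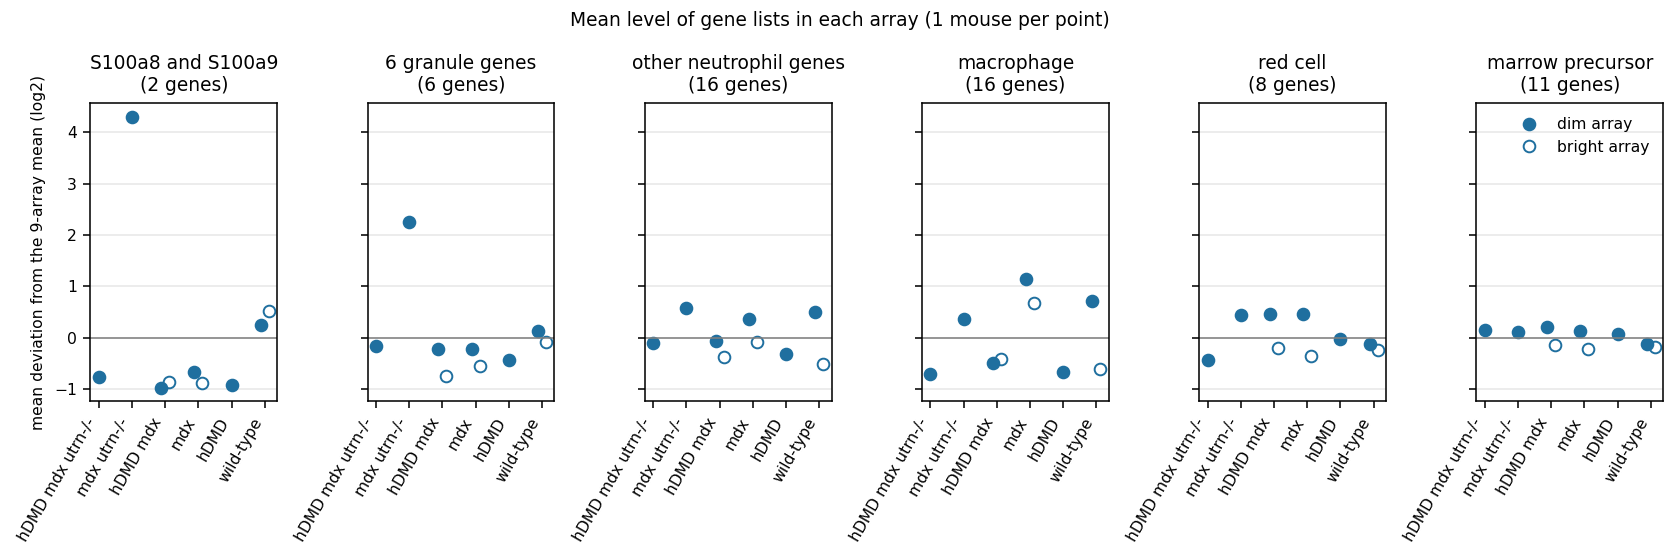
Mean deviation of the genes of each list (panels) from their mean over the 9 arrays, on the log2 scale (y axis), in each mouse by genotype; filled points are dim arrays and open points bright ones. The calprotectin, granule and other neutrophil panels have their highest point in mdx utrn-/-, the last at 0.58 against 0.50 in wild-type 2, and the macrophage panel in mdx 1.

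Markers of other cell types were read in the same array. Macrophage markers (14 kept) had a median of -0.53 in mdx utrn-/- against mdx, 13 of them lower, with Mmp12 at -1.74 ± 0.52 and Ctss at -1.30 ± 0.64. Their summed intensity was 1245 in mdx utrn-/-, against 372 to 2440 in the other arrays, and mdx 1 was highest. Red cell markers summed to 2102 in mdx utrn-/-, against 1024 to 2643, the third highest, with Car2 at 1.97 ± 0.54 and Hba-a1 at 0.29 ± 0.64. Marrow precursor markers summed to 256, against 164 to 341, with 4 of 7 higher than in mdx and 3 lower, and a median of 0.33. Prtn3 differed by 0.87 ± 0.63, Rag1 by 0.73 ± 0.75, Dntt by -0.67 ± 0.52 and Cd34 by -0.49 ± 0.41. Myb lay at the floor in mdx utrn-/-, as in 6 of the 9 arrays. Platelet markers summed to 38.0, against 9.47 to 130 in the others, with Pf4 and Gp5 at the floor in mdx utrn-/- and Gp9 at 0.47 ± 0.64. Pf4 was at the floor in 7 of the 9 arrays and Gp5 in 2. Mast cell markers summed to 35.6, against 17.3 to 144, with Cpa3 and Tpsb2 at the floor in mdx utrn-/-. Cpa3 was at the floor in 2 of the 9 arrays and Tpsb2 in 4. Eosinophil markers summed to 2.71, against 3.10 to 16.5, with Epx and Prg2 at the floor and Ccr3 at -0.44 ± 0.45. Epx was at the floor in 6 of the 9 arrays and Prg2 in 5. Lymphocyte markers summed to 215, against 167 to 717, with Cd4 at -0.48 ± 0.77 and Ms4a1 at 0.35 ± 0.60. Adipocyte markers summed to 2445, against 818 to 6185, with 5 of 7 higher than in mdx and 2 lower. Retn differed by 2.63 ± 1.61, Fasn by 1.94 ± 0.92, Lep by -1.88 ± 0.53 and Scd1 by -0.97 ± 0.75. Muscle markers summed to 20622, against 20131 to 24093, with Mylpf at 0.48 ± 0.56 and Tnni2 at -0.45 ± 0.49. None of these lists' genes passed. An unadjusted p under 0.05 was reached by 1 red cell, 1 macrophage and 1 adipocyte marker and by no gene of the other 6 lists. The part of blood or of marrow in the members' levels was not tested.

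The same lists were read in the comparisons of mice with utrophin. In mdx against wild-type, where all 8 members were lower, the other granule and effector genes had a median of 0.22. Of them, 7 were higher and 5 lower, and Hp, haptoglobin, differed by 0.80. Hp stood at 9.11 and 9.40 in mdx, between the 2 wild-type mice at 6.47 and 10.45. Mmp9 lay at the floor in both mdx mice, against 5.02 and 4.54 in wild-type. Macrophage markers had a median of 0.95 there, with 13 of 14 higher. Mmp12, a macrophage elastase, differed by 1.93 and Lgals3 by 1.86. Lgals3, a galectin of macrophages, stood at 8.54 and 7.28 in mdx, against 4.57 and 7.53 in wild-type, so the 2 wild-type mice lay far apart and overlapped with mdx. In hDMD mdx against mdx, where the members had no common direction, macrophage markers were lower in 14 of 14, by a median of -1.57, with Lgals3 at -3.01 and Ctss at -2.54. The other granule and effector genes had a median of -0.44 there, with Hp at -1.51 and Cyba, a subunit of the NADPH oxidase, at -1.23. In hDMD mdx against wild-type, where 7 of the 8 members were lower, macrophage markers were lower in 14 of 14, by a median of -0.62. The other granule and effector genes had a median of -0.39 in that comparison, with 4 higher and 8 lower. With limma, 0 genes of either list passed in these comparisons. An unadjusted p under 0.05 was reached by 2 macrophage markers in mdx against wild-type and by 6 in hDMD mdx against mdx. None reached it in hDMD mdx against wild-type, and no other granule or effector gene did in any of these comparisons.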

How the data were processed

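The authors deposited 1 table of probe set intensities, which are linear and partly below 0. How they were summarised and scaled is not given in the sources used here. Per the labels' protocols, total RNA was purified with Trizol and RNeasy and transcribed into biotin-labelled cRNA. Before any test the 9 arrays were brought to a common distribution by quantile normalisation of the linear intensities, negative results were replaced by 0, and log2 of the value plus 16 was taken. The 66 control probe sets were left out, and 7453 of 12422 with a mean above the 40th percentile were kept. Gene names came from the platform annotation, updated through Entrez identifiers: 10833 probe sets had 1 symbol, 396 several and 1193 none. For genes with more than 1 probe set the brightest was used.

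Comparisons were fitted with limma (version 3.58.1, R 4.3.3) using lmFit, contrasts.fit and eBayes. The model held a mean for each genotype (3 residual degrees of freedom), or for each class for lacking against carrying (7). Benjamini-Hochberg adjustment ran over 7453 probe sets, with a threshold of 0.05. Named genes were all members, the passing genes of each list or else its 2 largest differences, printed for every list in mdx utrn-/- against mdx and for some lists elsewhere, and the 8 genes most like calprotectin. Prtn3, Ctsg and Mmp8 as granule genes, Lep, Scd1, Dntt and Cd34, and Myb, Pf4, Epx and Prg2 at the floor were named outside this rule after their values were seen. Members and lists were chosen with earlier results of these data known. The number of arrays limits the precision. Promoter sequences came from RefSeq tables of GRCm38.p6, and all 8 genes were matched. The fits were tested on simulated data.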

Additional observations from a re-analysis of the deposited data

Results flagged for a closer look

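Camp stood at 5.21 in hDMD mdx 1, a bright array, far from the other 5 arrays carrying dystrophin, which lay between 6.36 and 6.72. Its gap to the nearest of them was 0.764 of the group's range, above Dixon's critical value for a group of 6 arrays. By chance about 1 in 20 such groups is set apart this way, and each of the 8 genes was screened. The 6 arrays also pool genotypes and ages, so nothing is read from this flag.

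Ltf was higher in hDMD mdx than in mdx by 0.32, and lower in hDMD mdx utrn-/- than in mdx utrn-/- by 2.63 on the log2 scale. Elane was higher by 0.62 in the first pair and lower by 1.69 in the second. In both genes every array moved in opposite directions in the 2 pairs, and the difference was not tested. The members were chosen with the mdx utrn-/- values known, and all 8 were lower in the second pair. For that reason nothing is read from this flag.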

How the results depend on the processing

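No paired analysis was possible because replicate numbers were given in accession order and the labels carry none. The median over the 8 genes in mdx utrn-/- against mdx was 1.39 on the deposited intensities, 2.48 with a common 75th percentile, 4.01 with a pseudocount of 1, 1.85 with 64 and 2.57 with array brightness as a block. For hDMD mdx utrn-/- against mdx utrn-/- these were -2.02, -2.26, -3.80 and -1.66, in the same order without the block. For mdx against wild-type they were -1.26 and -0.26 with pseudocounts of 1 and 64. For hDMD mdx against wild-type the values were -0.33 as deposited, -0.62 with the 75th percentile, -1.20 and -0.36 with pseudocounts of 1 and 64, -0.61 with every probe set and -0.54 in dim arrays. For hDMD mdx against mdx they were 0.12 as deposited and -0.40 with a pseudocount of 1. For lacking against carrying they were 0.62 as deposited, 1.23 and 0.56 with pseudocounts of 1 and 64, 0.67 with every probe set and 1.28 in dim arrays. Leaving out each mouse gave -0.29 to 1.35 for lacking against carrying and -0.27 to 0.12 for hDMD mdx against mdx. It gave -0.85 to -0.57 for hDMD mdx against wild-type and -0.69 to -0.46 for mdx against wild-type. For mdx utrn-/- against mdx only the 2 mdx mice could be left out, which gave 2.63 to 3.01. The cause of these shifts was not tested. Calls in mdx utrn-/- against mdx were 0 as deposited, 0 with a pseudocount of 1, 6 without the filter and 0 to 0 without either mdx mouse. Calls for lacking against carrying were 0 as deposited, 1 with a pseudocount of 1, 2 without the filter and 2 to 18 without 1 mouse. On the deposited intensities 4 of the 8 genes were highest in mdx utrn-/-, and 8 under the other settings that represent a gene by 1 probe set. Single genes were followed over the settings that represent a gene by 1 probe set, so the dimmer Lcn2 and Mpo probe sets are not counted. The sign of a gene's difference was kept in 64 of 64 values for mdx utrn-/- against mdx and in 32 of 32 for hDMD mdx utrn-/- against mdx utrn-/-. It turned in 6 of 88 for mdx against wild-type, 10 of 88 for hDMD mdx against wild-type, 10 of 88 for hDMD mdx against mdx and 8 of 128 for lacking against carrying. The dim and bright subsets were chosen after seeing the data. Levels near the floor carry no order, and no genotype had more than 2 mice.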

Other observations

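Besides the members, the probe sets with the widest gap between mdx utrn-/- and the next array, named after their values were seen, included G0s2 (3.38, level 9.55), Chil3 (2.34, level 7.62), Maged2 (2.04, level 8.45), Ifitm6 (1.91, level 6.59) and Socs3 (1.64, level 6.40). G0s2 inhibits fat breakdown and Socs3 damps cytokine signalling. Members made up 6 of the widest 10 gaps and 7 of the widest 20, and their probe sets were 10 of the 12422 ranked. They were chosen with these values known, so nothing is read from these counts.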
